A study of Homo sapiens with 4 samples.

Results

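Replication-dependent histone genes were examined as a family in CUT&RUN peak lists of synovial sarcoma (SS) cells. Members were the protein-coding genes of GENCODE 44 on hg38 that lie on chromosome 6 or 1 and whose symbol begins with H1-, H2AC, H2BC, H3C, or H4C followed by a number. The rule took 68 of the 20033 protein-coding genes on chromosomes 1 to 22, X, and Y, with 55 on chromosome 6 and 13 on chromosome 1. By type, 6 encode H1, 17 H2A, 18 H2B, 13 H3, and 14 H4. The rule used names and positions, and no measured value entered it. A member was counted as having a peak when at least 1 bp of a deposited peak overlapped its gene body extended by 1 kb on each side.

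The cells were HSSY II, a human SS line that expresses SS18::SSX, the fusion oncoprotein of this tumor. CUT&RUN, in which an antibody-tethered micrococcal nuclease releases the chromatin around a bound protein, was done for SS18::SSX and for WDR5 after 4 days with DMSO or with 2.5 μM MS67, a PROTAC degrader of WDR5. Each of the 4 conditions had 1 library, from 1000000 HSSY II cells mixed with 50000 murine NIH-3T3 cells as a spike-in, so no difference below has a replicate check. The NIH-3T3 cells carried H2B-GFP, and the SS18::SSX libraries received an anti-GFP antibody beside the SS18::SSX antibody, in the DMSO and in the MS67 sample. All 4 libraries came from 1 cell line, and the sources used here name no control library for the peak calls. RNA was not analysed here, so nothing below bears on the expression of the histone genes.

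Replication-dependent histone genes supply the core and linker histones that package new DNA in S phase. They are short, lack introns, and sit in clusters, and their mRNAs end in a stem loop bound by SLBP in place of a poly(A) tail. NPAT assembles at the clusters in nuclear histone locus bodies and switches the genes on. WDR5 is a WD-repeat scaffold of the MLL/SET methyltransferase complexes and is found mostly at the promoters of active genes.

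The WDR5 lists held 35605 peaks under DMSO and 14123 under MS67, and the SS18::SSX lists 15141 and 1175. Genome-wide coverage was taken as the lowest background solved at any peak of a list. This assumes calls without a control library and at least 1 peak at the genome-wide level. It was 0.368 fragments per bp for WDR5 with DMSO and 0.168 with MS67, a ratio of 0.458. For SS18::SSX it was 0.541 with DMSO and 0.737 with MS67, a ratio of 1.36. By this estimate the WDR5 MS67 library was the shallowest of the 4, and the SS18::SSX MS67 library the deepest. The scaling by depth below rests on it.

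The members formed 6 groups separated by more than 200 kb. On chromosome 6, 2 genes lay at chr6:25723397-25727345, 32 at chr6:26017032-26285638, 5 at chr6:27125897-27147562, and 16 at chr6:27807479-27893891. On chromosome 1, 11 lay at chr1:149782689-149887965 and 2 at chr1:228434777-228463104. All 68 canonical transcripts have 1 exon, and 51 of the annotated gene bodies are shorter than 1000 bp. In 12 places an H2A gene and an H2B gene (24 genes in all) start back to back, 193 to 250 bp apart (median 237 bp), and share the sequence between their start sites. Of these pairs, 2 had a peak of either protein within 1 kb of a start site, and 10 had none.

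The intervals between the start sites of 3 such pairs are shown because one lies beside a WDR5 peak, one beside an SS18::SSX peak, and one beside neither. Each is the hg38 plus strand, read 5′ to 3′. Capitals mark the TATA box searched as TATAAA, the box of the letters CCAAT, and the octamer of histone promoters, ATTTGCAT, on either strand, and capital runs merge where matches overlap. The first is chr6:27807930-27808172 between H2BC13 and H2AC13, the second chr6:27146856-27147105 between H2BC12 and H2AC12, and the third chr6:26199294-26199515 between H2AC7 and H2BC7.
H2BC13–H2AC13, WDR5 peak beside it: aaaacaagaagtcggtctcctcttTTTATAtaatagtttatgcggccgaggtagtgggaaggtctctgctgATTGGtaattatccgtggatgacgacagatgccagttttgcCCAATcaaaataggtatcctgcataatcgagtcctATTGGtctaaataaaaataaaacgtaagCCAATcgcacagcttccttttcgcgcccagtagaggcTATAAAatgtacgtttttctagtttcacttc
H2BC12–H2AC12, SS18::SSX peak beside it: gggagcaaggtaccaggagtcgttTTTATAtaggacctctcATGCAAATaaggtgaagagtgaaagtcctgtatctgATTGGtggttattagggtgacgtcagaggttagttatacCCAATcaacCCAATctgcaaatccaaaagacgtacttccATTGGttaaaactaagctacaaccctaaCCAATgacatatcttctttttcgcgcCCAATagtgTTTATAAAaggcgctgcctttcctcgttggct
H2AC7–H2BC7, no peak: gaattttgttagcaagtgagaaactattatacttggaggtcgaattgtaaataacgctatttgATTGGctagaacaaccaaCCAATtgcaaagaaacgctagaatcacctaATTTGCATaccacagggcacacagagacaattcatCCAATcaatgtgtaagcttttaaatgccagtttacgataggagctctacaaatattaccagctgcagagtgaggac
All 12 intervals held CCAAT, 9 held TATAAA, 9 held the octamer, and 1 held the GC box GGGCGG. The pair beside the WDR5 peak has no exact octamer, whereas the other pairs printed have it. Among the 12, the intervals of H2AC15–H2BC15 and H2AC25–H2BC26 also lack it, and these had no peak within 1 kb of a start site. Lack of the octamer was thus not particular to the pair with a WDR5 peak. With 1 such pair, whether the octamer separates pairs with WDR5 from pairs without cannot be told.

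Few of these genes had a peak in any list. WDR5 peaks with DMSO touched 9 of the 68 members (13.2%, 95% interval 6.23 to 23.6), against 67.1% of all protein-coding genes. With MS67, a WDR5 peak touched 1 member (1.47%, 0.0372 to 7.92), against 45.8% of all genes. SS18::SSX peaks with DMSO touched 4 members (5.88%, 1.63 to 14.4), against 25.5% of all genes. With MS67, SS18::SSX had a peak at 0 of 68 members, which allows a share of up to 4.41% by a limit of 3 counts and 5.28% by the exact interval, and at 2.49% of all genes. Intervals are exact Clopper-Pearson intervals and cover counting error only, and neighbouring genes can share 1 peak.

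A long gene has more room for a peak, so the same count was made within 1 kb of the start site, where every gene has an equal window. WDR5 with DMSO then had a peak at 6 of 68 members (8.82%, 3.31 to 18.2), against 51.4% of all genes. With MS67 it was at 0 of 68, against 35.1% of all genes. SS18::SSX with DMSO kept its 4 members, against 16.1% of all genes. SS18::SSX with MS67 was at 0 of 68, against 0.909% of all genes. In both windows the WDR5 shares lay well below those of all genes, and the SS18::SSX shares with DMSO were also lower. The 4 SS18::SSX members rest on 2 peaks, however. With overlapping windows of gene body plus 1 kb merged to loci, 2 of 36 loci had one (5.56%, 0.680 to 18.7). The 25.5% of all genes in that window lies above this interval, but all genes were not merged to loci and long genes have more room. Start-site windows were not merged to loci, so a difference there beyond counting error cannot be stated.

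Genes with a low promoter GC content or a short body were likewise poor in WDR5 peaks. Promoter GC, over 250 bases before to 50 after the start site, had a median of 44.2% (36.3 to 58.0) in the members and 63.7% in all genes. Among 1381 other genes whose promoter GC lay between the quartiles of the members (41.3 to 47.8%), 164 had a WDR5 peak with DMSO within 1 kb of the start site (11.9%, 10.2 to 13.7). Among 423 other genes with a body under 1000 bp, 37 had one (8.75%, 6.23 to 11.9). Both shares lie inside the interval of the histone genes, so the low WDR5 share was not particular to histone genes. With MS67 the same groups stood at 5.79% and 4.96%, and the exact interval of the histone genes, with 0 of 68, reached up to 5.28%. For SS18::SSX with DMSO they stood at 2.53% and 2.60%, inside the interval of the histone genes.

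**Figure D1:**
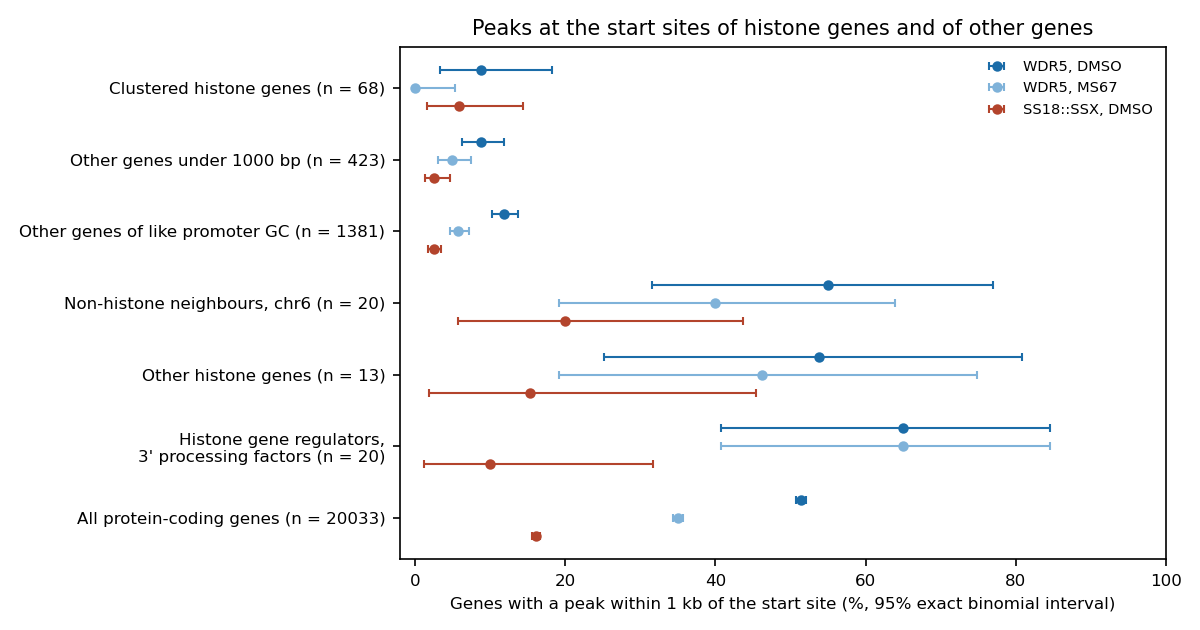
Share of genes with a peak within 1 kb of the start site (percent, horizontal axis) for the 68 clustered histone genes and 6 other sets of genes, with points for WDR5 with DMSO, WDR5 with MS67, and SS18::SSX with DMSO, and bars for exact 95% binomial intervals (counting error only, 1 library each). The WDR5 DMSO point of the histone genes (8.82%) sits beside those of short genes (8.75%) and of genes with a like promoter GC (11.9%), and below that of all genes (51.4%).

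Other histone genes and the genes around the clusters carried WDR5 more often than the members did, at shares near that of all genes. The list of 13 other histone genes held mainly genes of replacement variants, such as H2AZ1 and H3-3A, and H4C16, an H4 gene on chromosome 12 that the rule leaves out by its position. These genes had a WDR5 peak within 1 kb of the start site in 7 cases with DMSO (53.8%, 25.1 to 80.8) and 6 with MS67 (46.2%, 19.2 to 74.9). The shares of all genes were 51.4% and 35.1%. H1-10, a linker histone, had a peak of −log10 q 10.8 with DMSO and 4.22 with MS67. H2AZ1 had 6.11 and 2.21, and H3-3A, which encodes the H3.3 variant, had 2.96 and 5.59. These −log10 q values depend on the depth of each library and are not a measure of change. Promoter GC in this list had a median of 60.7%, above the 58.0% of the highest member.

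The 20 non-histone protein-coding genes that lie between the outermost members of the chromosome 6 groups had a WDR5 peak at the start site in 11 cases (55.0%, 31.5 to 76.9) with DMSO and 8 with MS67. The interval of these neighbours did not overlap that of the histone genes (3.31 to 18.2), and it included the 51.4% of all genes. Their promoter GC had a median of 45.7%, near that of the histone genes, but an upper quartile of 56.7% and a maximum of 66.0%, against 47.8% and 58.0%. The part of promoter GC in this difference was not tested. Among these neighbours, 4 had an SS18::SSX peak at the start site with DMSO (20%, 5.73 to 43.7), against 16.1% of all genes.

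Of 20 regulators of histone genes and factors of histone mRNA 3′ processing, 13 had a WDR5 peak at the start site with DMSO (65.0%, 40.8 to 84.6) and 13 with MS67, 11 of them in both. The 51.4% of all genes lies inside that interval. HINFP, a transcription factor of H4 genes, had −log10 q of 6.10 with DMSO and 4.84 with MS67, and LSM10, a subunit of the U7 snRNP, had 5.04 and 3.90. NPAT, SLBP, YY1, CRAMP1, and COIL had none at the start site in either WDR5 list. SS18::SSX with DMSO was at the start sites of SYMPK (−log10 q 4.81) and ZNF473 (3.50), both of which act in histone pre-mRNA cleavage. Among the 13 other histone genes it was at H2AZ2 (1.81) and H3-3B (3.43). With MS67, no gene of these lists had an SS18::SSX peak in its gene body extended by 1 kb on each side. Only 2.49% of all genes had one there. The exact intervals reach up to 24.7% for the 13 other histone genes and 16.8% for the 20 regulators and processing factors. The lists are thus too short to tell their shares from that of all genes.

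The peaks called at members were few, and their summits lay off the start sites. WDR5 with DMSO had 10 distinct peaks at members, with −log10 q from 1.95 to 11.2, fold from 3.42 to 6.97, and 8 to 23 fragments at the summit. In the whole list the median was 4.37 for −log10 q and 13 for the fragments. Of the 10, 6 lay below the list's median −log10 q, which is near what a median sets for any group of peaks. The strongest, at H2BC26 and H2BC4, ranked 1669 and 2861 of 35605. Of the 10, 5 came within 1 kb of a member's start site.

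The WDR5 summit closest to a member's start was at H4C13, an H4 gene, 281 bp upstream of it. The peak, chr6:27873727-27873919, had 11 fragments at the summit, a fold of 3.57, and −log10 q of 2.49, and ranked 31403 of 35605. Its sequence is shown because it is the WDR5 peak nearest to a member's start, and it holds none of the 4 motifs. It is printed in lower case on the plus strand of hg38.
H4C13 WDR5 peak: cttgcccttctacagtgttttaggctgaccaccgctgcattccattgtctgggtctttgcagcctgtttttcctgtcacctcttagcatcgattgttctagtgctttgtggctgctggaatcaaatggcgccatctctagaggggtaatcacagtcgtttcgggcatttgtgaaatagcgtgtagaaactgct
The peak of H2BC13, chr6:27807587-27807772, lay entirely in the H2B coding sequence, with its summit 313 bp downstream of the start, 8 fragments, a fold of 3.78, and −log10 q of 2.24. The same peak was counted for H2AC13, whose start is 557 bp away. At the linker histone gene H1-4 the summit lay 840 bp upstream, with 10 fragments and −log10 q of 4.08. At H3C12 it lay 930 bp downstream, outside the coding sequence, with 8 fragments and −log10 q of 2.09.

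On chromosome 1, H2AC21 had a WDR5 summit 964 bp upstream of its start with DMSO, with 14 fragments, a fold of 5.09, and −log10 q of 5.29. H2BC26 had the strongest peak of any member, chr1:228463733-228464693, with 23 fragments, a fold of 6.97, and −log10 q of 11.2 at rank 1669. That summit lay 6340 bp downstream of the start of H2BC26, past the end of the gene body. The peak counted for H2AC6, at −log10 q 1.95 with 9 fragments, lay 7022 bp downstream of its start.

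H2BC4 is the member with peaks in more than 1 list, through a gene body annotated far beyond its coding sequence. Its 3 WDR5 peaks with DMSO had summits 34595 to 35867 bp downstream of the start, with −log10 q of 9.61, 5.45, and 2.54. The strongest lay 630 bp from the start site of a neighbouring non-histone gene. The WDR5 peak with MS67, chr6:26087355-26087749, had 15 fragments, a fold of 7.94, and −log10 q of 8.49, and its summit lay 8 bp from that start site. Within 1 kb of the start of H2BC4 itself there was no peak in either list. Thus the only member counted with WDR5 after MS67 was counted for a peak at another gene's start.

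SS18::SSX with DMSO had 2 distinct peaks at members, both on chromosome 6 and both overlapping a coding sequence. The first, chr6:26020604-26020762, lay entirely in the coding sequence of H3C1, with its summit 215 bp downstream of the start, 9 fragments, a fold of 4.29, and −log10 q of 2.61. Its window also reaches H4C1, whose start is 983 bp away. The second, chr6:27147381-27147538, had its summit 397 bp downstream of the start of H2AC12, with 83.5% of its length in the coding sequence, 8 fragments, a fold of 4.68, and −log10 q of 2.92. It was counted for H2BC12 too, whose start is 648 bp away. Both were below the list's median −log10 q of 3.68, and 0 peaks of either SS18::SSX list overlapped an H2B coding sequence. The H3C1 peak is printed because it lies in a coding sequence whose protein is nearly invariant between H3 genes, and it holds none of the 4 motifs.
H3C1 SS18::SSX peak: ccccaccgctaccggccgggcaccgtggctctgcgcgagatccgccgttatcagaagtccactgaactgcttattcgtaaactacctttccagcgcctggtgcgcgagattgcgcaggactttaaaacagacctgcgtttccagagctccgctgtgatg

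**Figure D2:**
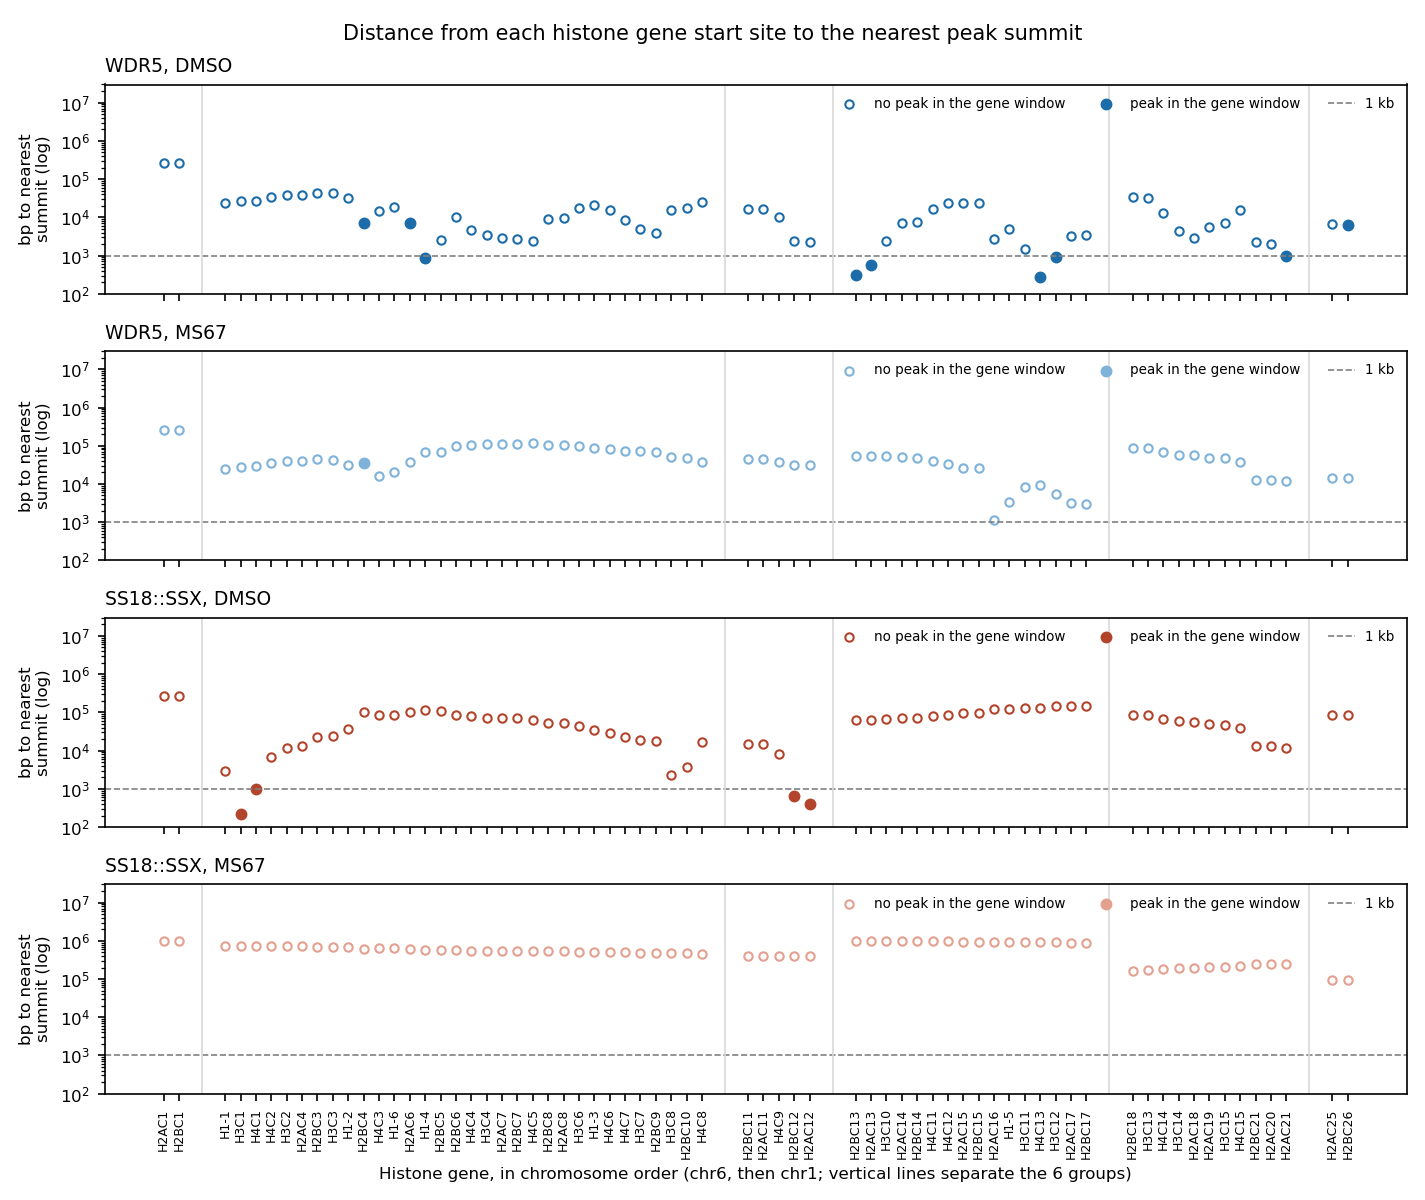
Distance in bp (log axis) from the start site of each of the 68 histone genes to the nearest peak summit in each of the 4 lists, with genes in chromosome order, filled points for genes with a peak in their window, and a dashed line at 1 kb. Summits within 1 kb of a start are few with DMSO (WDR5 at H1-4, H2BC13, H2AC13, H4C13, H3C12, and H2AC21; SS18::SSX at H3C1, H4C1, H2BC12, and H2AC12), and there are none with MS67.

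In all, 13 members had a peak in at least 1 list and 55 had none, 44 on chromosome 6 and 11 on chromosome 1. Of the H1 genes, H1-1, H1-2, H1-3, H1-5, and H1-6 had none. The H2A genes with none were H2AC1, H2AC4, H2AC7, H2AC8, H2AC11, H2AC14, H2AC15, H2AC16, H2AC17, H2AC18, H2AC19, H2AC20, and H2AC25. Among the H2B genes these were H2BC1, H2BC3, H2BC5, H2BC6, H2BC7, H2BC8, H2BC9, H2BC10, H2BC11, H2BC14, H2BC15, H2BC17, H2BC18, and H2BC21. Among the H3 genes they were H3C2, H3C3, H3C4, H3C6, H3C7, H3C8, H3C10, H3C11, H3C13, H3C14, and H3C15. The H4 genes with none were H4C2, H4C3, H4C4, H4C5, H4C6, H4C7, H4C8, H4C9, H4C11, H4C12, H4C14, and H4C15.

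The chromosome 6 and chromosome 1 clusters did not differ beyond counting error. WDR5 with DMSO was at 7 of 55 members on chromosome 6 (12.7%, 5.27 to 24.5) and 2 of 13 on chromosome 1 (15.4%, 1.92 to 45.4). SS18::SSX with DMSO was at 4 of 55 on chromosome 6 (7.27%, 2.02 to 17.6) and at 0 of 13 on chromosome 1, which allows a share of up to 23.1% by a limit of 3 counts and 24.7% by the exact interval. With MS67, WDR5 was at 1 of 55 and 0 of 13. Within chromosome 6, WDR5 with DMSO was at 4 genes of the group of 16 and at 3 of the group of 32, whereas SS18::SSX was at 2 genes of the group of 5 and at 2 of the group of 32.

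Repeated sequence limits what can be seen on chromosome 1. The share of 50-base words in a member's window that occur elsewhere in hg38 had a median of 2.30% on chromosome 6 (at most 19.7%) and 71.5% on chromosome 1 (3.29 to 100%). Over 50% was repeated in 8 members, all on chromosome 1 and all without a peak, namely H2AC18, H2AC19, H2BC18, H3C13, H3C14, H3C15, H4C14, and H4C15. Without them, WDR5 with DMSO was at 9 of 60 members (15%), and on chromosome 1 at 2 of 5 (40%, 5.27 to 85.3), an interval that still overlaps that of chromosome 6. The authors kept primary alignments only, and any further filter on reads with several equally good positions is not given in the sources used here.

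No histone type stood apart beyond counting error. WDR5 with DMSO was at 1 of 6 H1, 3 of 17 H2A, 3 of 18 H2B, 1 of 13 H3, and 1 of 14 H4 genes, shares of 16.7, 17.6, 16.7, 7.69, and 7.14% with intervals that all overlap. SS18::SSX with DMSO was at 0 of 6 H1 genes and at 1 gene of each core type. The H2A and H2B promoters hold the octamer in 12 of 17 and 14 of 18 genes, and the H1, H3, and H4 promoters in none, and the peak shares of these types overlapped as above.

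The TATA box, the box of the letters CCAAT, and the octamer were more frequent in the members' promoters than in all promoters, and the GC box was less frequent. TATAAA was in 45 of 68 members (66.2%) and in 9.71% of all protein-coding promoters of the same length. CCAAT was in 59 (86.8%) against 36.1%, and the octamer in 26 (38.2%) against 1.62%. GGGCGG was in 17 (25%) against 61.3%. All 6 members with a WDR5 peak within 1 kb of the start held TATAAA and CCAAT, 1 held the octamer, and 1 held GGGCGG. Of the 62 without, 39 held TATAAA, 53 CCAAT, 25 the octamer, and 16 GGGCGG. With 6 genes on one side, these shares cannot separate promoters with WDR5 from those without.

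WDR5 peaks near members were not centred on their start sites. In 250-bp bins, 5215 of the 20033 genes had a WDR5 peak with DMSO in the bin just upstream of the start, and the mean fell from 21.2% per bin within 1 kb to 3.03% at 1 to 5 kb. For the members the means were 2.02% and 1.98%, and 1 of 68 had a peak in the bin just upstream. Their highest bin was 2250 to 2500 bp upstream, with 5 genes. The lower level of the members ran just past 1 kb, since 17.8% of all genes and 0 members had a peak 1000 to 1250 bp downstream. In the bin with the 5 genes the shares were 7.35% for members and 1.60% for all genes. That bin was picked from these counts as the highest, and neighbouring members can share 1 peak. Over 1 to 5 kb as a whole, the mean of the members was below that of all genes, but the members were not lower throughout. At 2750 to 3000 bp upstream and at 3000 to 3250 bp downstream, 4.41% of members and 1.24% of all genes had a peak. At 3750 to 4000 bp upstream it was 0 members and 1.08% of all genes.

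**Figure D3:**
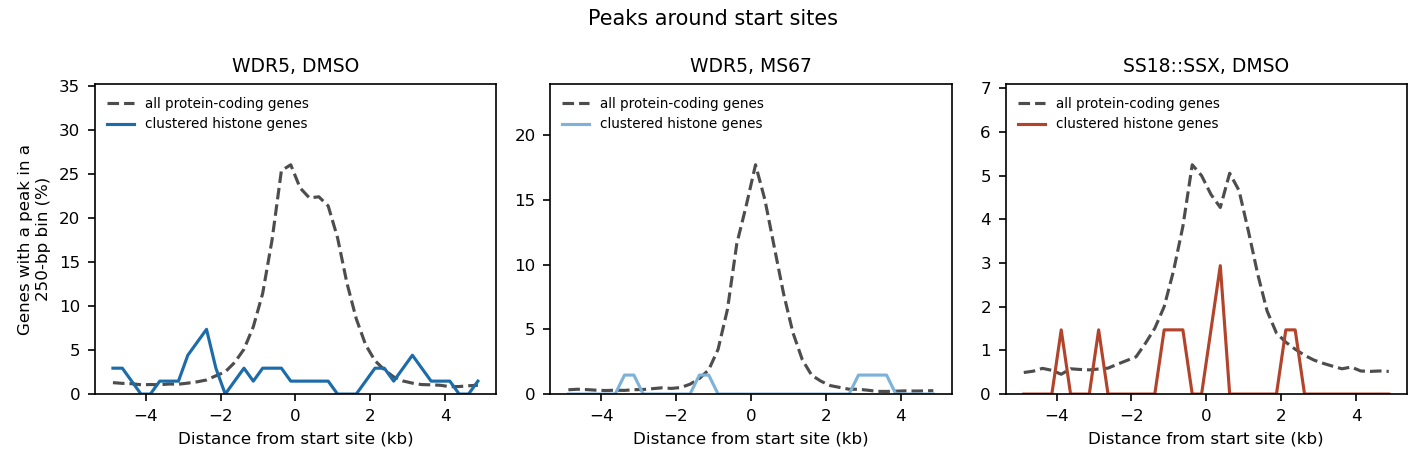
Share of genes with a peak in each 250-bp bin (percent, vertical axis, different in each panel) by distance from the start site in kb, for the 68 histone genes (solid) and all 20033 protein-coding genes (dashed), in the WDR5 DMSO, WDR5 MS67, and SS18::SSX DMSO lists. All genes peak at the start site (5215 genes in the highest bin for WDR5 with DMSO), and the histone genes show no such rise for WDR5 (mean 2.02% within 1 kb and 1.98% beyond).

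The chromosome 6 groups of 32 and 16 genes held most of the WDR5 summits of the clusters. From the first to the last gene of each group, the 514240 bp held 15 WDR5 summits with DMSO, 29.2 per Mb against 12.1 per Mb over the genome. The genome rate covers all of hg38 and was not limited to stretches with genes. Of these summits, 10 lay in the group of 32 genes (37.2 per Mb), 4 in the group of 16 (46.3 per Mb), and 1 in the chromosome 1 group of 11. The other groups held none. The groups of 32 and 16 also hold most of the members and most of that length. Of the 10 summits, 3 are those of H2BC4, 630 to 1902 bp from the start of a non-histone gene. Windows of 1 kb around the members' start sites made up 20.2% of that length and held 4 of the 15 summits. With MS67 there were 2 summits (3.89 per Mb against 4.81). SS18::SSX had 3 with DMSO (5.83 against 5.15) and 0 with MS67. Counts of 2 and 3 summits carry wide counting error.

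The nearest WDR5 summit with DMSO lay a median of 7984 bp from a member's start, against 1126 bp for all genes and 796 bp for the non-histone neighbours on chromosome 6. With MS67 the median was 44237 bp for the members and 17655 bp for all genes, and the closest summit was 1152 bp from the start of H2AC16. Within 5 kb of the start, 26 members (38.2%) had a WDR5 summit with DMSO and 4 (5.88%) with MS67, against 63.1% and 40.9% of all genes. For SS18::SSX with DMSO it was 7 members (10.3%), against 21.2%, and these 7 rest on 3 peaks. The median distance to an SS18::SSX summit was nonetheless shorter for the members than for all genes. It was 64244 against 85492 bp with DMSO and 557064 against 1767840 bp with MS67. With MS67, the nearest SS18::SSX summit to any member was 96505 bp away.

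Depth at the members' peaks sets how far the DMSO and MS67 lists can be compared. The local background of the 18 WDR5 DMSO peaks within 5 kb of a member's gene body was 3.35 to 8.87 times the genome-wide coverage (median 5.27), and the median over that list was 4.91. At such backgrounds the lowest pileup called was 7 fragments. The 3 SS18::SSX DMSO peaks in the same reach had backgrounds of 1.70 to 3.17 times the coverage, below the list's median of 5.72. Background away from called peaks is not known from the files.

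**Figure D4:**
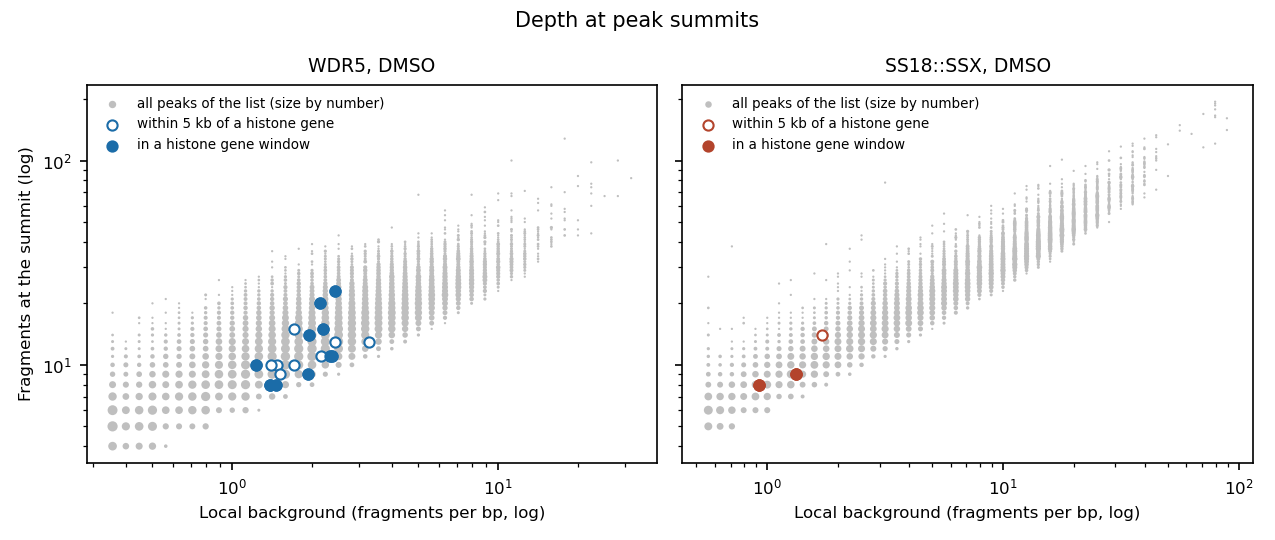
Fragments at the summit against the local background in fragments per bp (both axes log) for the WDR5 DMSO and SS18::SSX DMSO lists. Grey points are all peaks (larger where more peaks coincide). Open points are peaks within 5 kb of a histone gene body, and filled points are peaks in a histone gene window (gene body plus 1 kb each side). The WDR5 peaks at members hold 8 to 23 fragments and the SS18::SSX peaks 8 and 9, near the lower edge of what was called at their background in several cases.

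Of the 9 members with a WDR5 peak under DMSO, 1 had a WDR5 peak with MS67 (11.1%, 0.281 to 48.2), against 63.5% of all such genes. Scaled by the coverage ratio of 0.458, the 10 DMSO peaks would hold 3.67 to 10.5 fragments, and the lowest pileups in the MS67 list at a like background were 5 to 6. Only 4 of the 10 would reach that level, at H2BC4 (2 peaks), H2AC21, and H2BC26. At the other 6, namely those of H1-4, H2BC13, H4C13, H3C12, and H2AC6 and the weakest of H2BC4, a loss with MS67 was not detectable at this depth. H2AC21 and H2BC26 had no WDR5 peak with MS67, at scaled pileups of 6.42 (95% counting interval 3.51 to 10.8) and 10.5 (6.68 to 15.8). The interval at H2AC21 reaches below the lowest pileup of 6 called, so a loss there was not detectable either, and that lowest value is no threshold of detection. The MS67 peak counted for H2BC4 overlapped none of its DMSO peaks. The scaled intervals of its 2 stronger DMSO peaks (5.60 to 14.2 and 3.85 to 11.3) also reach below 6, so a loss of these was not detectable.

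Of the 4 members with an SS18::SSX peak under DMSO, 0 had one with MS67, against 9.19% kept over all genes, and 4 genes are too few to tell these shares apart. By the recovered coverage, the MS67 library was the deeper one here. Scaled by 1.36, the peaks at H3C1 and at H2AC12 would hold 12.3 and 10.9 fragments, and the lowest called at a like background with MS67 were 10 and 8. Their counting intervals (5.61 to 23.3 and 4.71 to 21.5) reach below these, so a loss at either was not detectable at this depth. None of the 4 members with SS18::SSX had a WDR5 peak with DMSO, whereas 91.1% of all genes with SS18::SSX did, or 78.5% within 1 kb of the start. These 4 genes rest on 2 loci, and 0 of 2 allows a share of up to 84.2% by the exact interval. With 5 kb on each side, 2 of 7 members with SS18::SSX (28.6%) had WDR5 too. The non-histone neighbours on chromosome 6 with an SS18::SSX peak in their window numbered 6, and all 6 also had a WDR5 peak.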

How the data were processed

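CUT&RUN libraries of HSSY II cells were analysed as 4 peak lists, 1 per condition. The authors aligned reads to hg38 and mm10 and called peaks with MACS2 in each library; the submitters' processing notes also name Picard, SAMtools 1.9, bedtools 2.28.0, and deepTools 3.3.0. For each peak the authors deposited a score (not used), a fold enrichment (a ratio to local background), and −log10 p and −log10 q. Summit fragments and background were solved from the fold and −log10 p, and 100% of peaks were recovered to within 0.001. The steps were tested on simulated data. No MACS2 options, control library, or spike-in scaling of peaks are given in the sources used here.

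Genes were those of GENCODE 44, with start sites of canonical transcripts. Promoters (250 bases before to 50 after the start) were read from hg38 for every gene, in place of a RefSeq table that lacks some of them, and the comparison by promoter GC was added after the data were seen. Shares carry exact 95% intervals, and a count of 0 was given a limit of 3 counts, the upper bound of its exact interval, or both, as named. With 1 library per condition no test was run. Peaks under a like background were those within a factor of 1.2. Named were members with a peak after MS67, the 5 strongest on chromosome 6 and 3 on chromosome 1 in each DMSO list, members without any peak, and listed genes with SS18::SSX; other genes named, with their values, were chosen after these were seen. The members and lists were chosen with earlier results of these data known. Alternatives changed the window, overlap, peak thresholds, merging of loci, and repeated members. Scripts ran in Python 3.11.15 (pandas 2.3.3, numpy 2.4.6, matplotlib 3.10.9, scipy 1.17.1).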

Additional observations from a re-analysis of the deposited data

How the results depend on the processing

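Of 76 alternative values over 15 results, 63 stayed within the counting interval of the value reported, 13 moved out of it, and 0 reversed. The WDR5 DMSO share of 13.2% became 4.41% over the gene body alone (all genes 60.0%), 42.6% with 5 kb on each side (71.7%), 2.94% under the study's thresholds of −log10 q above 3 and fold above 6 (23.8%), and 4.41% at −log10 q above 5 (43.4%). The WDR5 MS67 share became 0% at start sites (all genes 35.1%) and 8.82% with 5 kb on each side (10022 of 20033 genes). The SS18::SSX DMSO share became 0% under the study's thresholds (fold above 3; all genes 16.6%) and 0% at −log10 q above 5 (7.58%). The share of WDR5 members kept with MS67 became 0% at start sites (0 of 6) and 50% under the study's thresholds (1 of 2). On chromosome 6, the WDR5 DMSO share became 1.82% and the SS18::SSX DMSO share 0% under the study's thresholds, and the WDR5 MS67 share 0% at start sites. Fewer peaks or shorter windows enter each of these, except with 5 kb. Shares of SS18::SSX members kept, or shared with WDR5, have no value under the stricter thresholds, since 0 members remain. No paired analysis was possible because each condition has 1 library and no test was run. Peaks with 8 to 11 fragments limit every comparison with the shallower WDR5 MS67 list.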
